A study of Rattus norvegicus with 6 samples.

Results

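The tendon stem and progenitor cell (TSPC) markers examined here are 9 genes taken by name, namely Nes, Mcam, Thy1, Eng, Cd34, Nt5e, Alcam, Tppp3 and Prg4. All 9 were measured, each by 1 row of the array table, among 22093 genes with a row of their own. TSPCs are the clonogenic, multipotent cells of tendon, and no single gene defines them. They are commonly recognised by mesenchymal surface proteins such as CD90 (Thy1), CD105 (Eng), CD73 (Nt5e), CD146 (Mcam) and CD166 (Alcam), together with low CD34. Nestin (Nes), the microtubule-binding protein Tppp3 and lubricin (Prg4) have been used, mainly in mouse, to mark progenitors along vessels, in the tendon sheath and at gliding surfaces. The proteins of 6 of the 9 genes sit on the cell surface, whereas those of the other 3 are intracellular or secreted. Most of these genes are also expressed by other cells of tendon, endothelial and mural cells above all.

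Whole Achilles tendons, labelled as freed of skin, were taken from 3 rats aged 6 to 8 weeks (P 6-8w) and 3 neonatal rats at 1 day after birth (P 1d). The methods describe the animals as male Sprague Dawley rats, and by the labels each tendon was taken singly, as a biological replicate. The labels name no agent or allele, and the groups differ in age. The older group is labelled by a range of weeks. The RNA was hybridised to Affymetrix Rat Transcriptome Arrays, and the authors deposited 1 log2 signal per transcript and array, made by robust multi-array average (RMA). The comparison asks which genes differ between mature and neonatal tendon. Every log2 difference is the P 6-8w mean less the P 1d mean. A gene was called where limma gave a Benjamini-Hochberg adjusted p under 0.05 over all genes and the fold change was over 2, that is, a log2 difference over 1 in size. Because the tissue was taken whole, fewer cells of a type and less RNA per cell cannot be told apart.

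The arrays showed tendon and further tissues. The tendon matrix genes Col1a1 and Dcn had signals of 17.69 or more on all arrays, and the tenocyte membrane gene Tnmd ranged from 9.36 to 13.47 at P 6-8w and from 13.44 to 14.91 at P 1d. The tendon transcription factor genes Scx and Mkx were dim, from 4.44 to 5.08 over the 6 arrays. The median of all rows was 4.43 to 4.54 on the P 6-8w arrays and 3.93 to 3.98 on the P 1d arrays. Muscle RNA was present at both ages, with Acta1, the skeletal muscle actin gene, at 17.41 to 19.59 at P 6-8w and 19.74 to 19.79 at P 1d. Epidermal genes were bright on P 1d replicates 1 and 3 and dim on P 1d replicate 2, with the keratin gene Krt1 at 17.94, 18.86 and 4.25, in that order. The highest value of each array, 19.56 to 19.79, was shared by many rows. Col1a1 and the hemoglobin gene Hba-a1 stood at it on every array, and Acta1 on every P 1d array and on P 6-8w replicate 1. The differences of these genes thus cannot be read in full. The markers, which reached at most 14.50, stayed below this highest value.

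Of the 9 markers, Nes, Mcam and Tppp3 were lower and Thy1 was higher in P 6-8w tendons, while Eng, Cd34, Nt5e, Alcam and Prg4 were not called. The 3 lower markers stand against a background of 16.8% of all 22093 genes called lower, and the 1 higher marker against 2.46% called higher (19.3% in either direction). Among the 5242 genes whose mean signal lay within the range of the markers, 6.07 to 10.62, 55.6% were called lower and 1.79% higher, so that the share of markers called lower was no larger than that of genes of their brightness. The median difference was -0.79 over the markers, -1.15 over the genes of their brightness and 0.04 over all genes. The 3 P 6-8w arrays lay below all 3 P 1d arrays for 4 markers and above them for 3, where this held for 34.1% and 34.8% of all genes (68.9% together). For any single marker, the lowest p that exact two-sided permutation allows with 3 rats against 3 is 0.1.

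**Figure D1:**
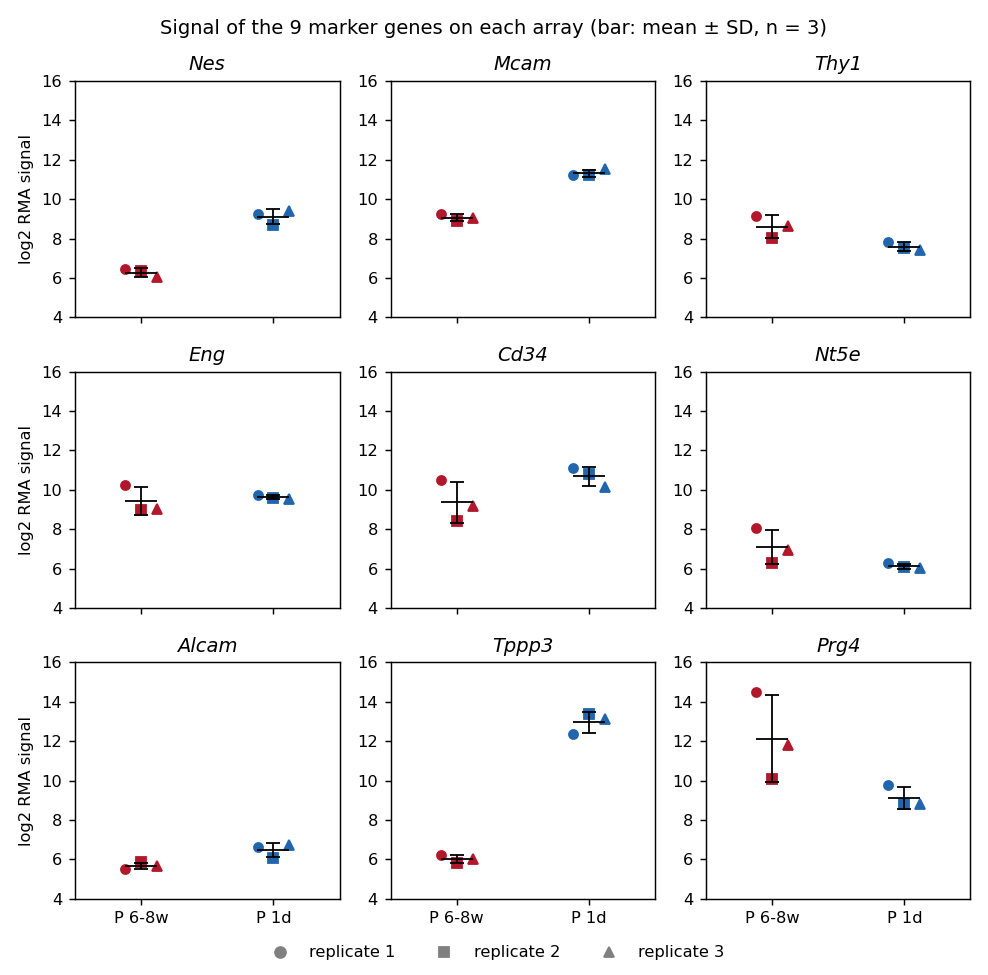
Log2 RMA signal (vertical axis) of the 9 markers on each of the 3 P 6-8w arrays (red, left) and the 3 P 1d arrays (blue, right), with the mean and SD as bars and the replicate number as the symbol. Tppp3 lies near 6 at P 6-8w and near 13 at P 1d, whereas Prg4 spreads from 10.09 to 14.50 at P 6-8w.

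The balance of calls depended on how the arrays were scaled, which bears on every marker. With the values as deposited, 87.2% of all calls were lower. The share was 10.2% with arrays centred by 9 reference genes, 3.32% with centring by the median of the brighter genes, and 52.6% after quantile normalization. Of the 9 reference genes, 4 were themselves called lower in the deposited values, Ppia at -2.87, Hprt1 at -2.03, Sdha at -1.89 and Pgk1 at -1.36, and the median of the 9 was -0.88 (adjusted p from 0.0025 to 0.0129 for the 4, from limma). The reference and brighter-gene scalings moved the median difference of all genes to 1.05 and 1.83. Of all 22093 genes, 11939 were then called higher on reference genes, 17286 on brighter genes and 894 after quantile normalization. Those called lower were 1351, 593 and 991, in the same order. The counts given below for gene lists under these scalings are to be read beside these numbers, since a shift common to all genes moves every list. Nes and Tppp3 were lower and called, and Thy1, Nt5e and Prg4 had positive differences, under all 5 scalings, whereas the sign of Eng, Cd34 and Alcam was not the same under all of them.

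**Figure D2:**
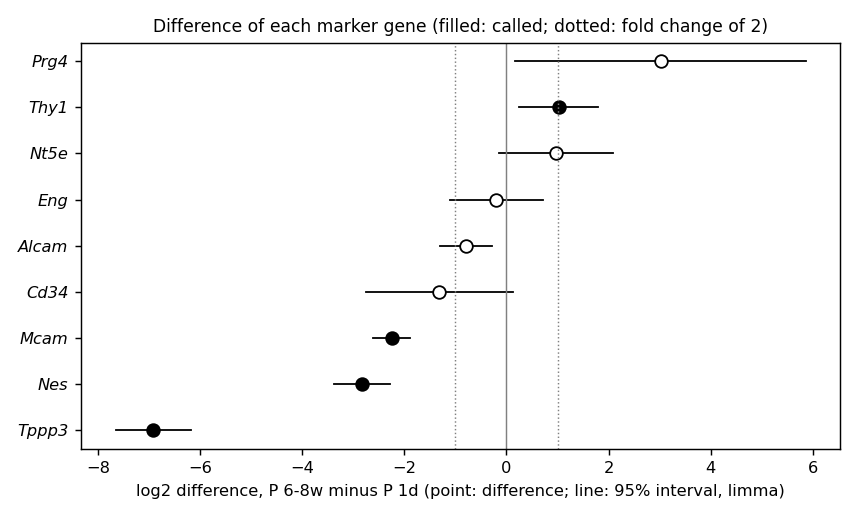
Log2 difference, P 6-8w minus P 1d, of each marker (horizontal axis), with its 95% interval from limma; filled points were called and the dotted lines mark a fold change of 2. Tppp3 has the lowest difference, -6.92, and Prg4 the highest, 3.02, with the widest interval.

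Tppp3 encodes a tubulin polymerization-promoting protein and in mouse marks cells of the paratenon and tendon sheath that can form tenocytes. Its signals were 6.24, 5.82 and 6.02 on the P 6-8w arrays, against 12.34, 13.40 and 13.11 on the P 1d arrays. Every P 6-8w array was thus dim and every P 1d array bright, and the differences between single arrays ran from -7.58 to -6.10. The difference was -6.92 (standard error 0.29, adjusted p = 0.000146 from limma), the lowest of the 9. It stayed between -7.37 and -5.13, and called, under each of 19 alternative settings.

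The genes whose values over the 6 arrays ran closest to those of Tppp3, after the mean of each gene was taken out, were Prkaca, Mymk and Gpc4. Their root mean square distances from it were 0.25, 0.26 and 0.26. Prkaca encodes a catalytic subunit of protein kinase A, Mymk the myoblast fusion protein myomaker, and Gpc4 a heparan sulfate proteoglycan. Mymk had 4.12, 4.09 and 3.96 at P 6-8w, against 10.08, 10.83 and 10.79 at P 1d. Likeness over 6 arrays rests mostly on the difference between the ages, which all 4 genes share.

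**Figure D3:**
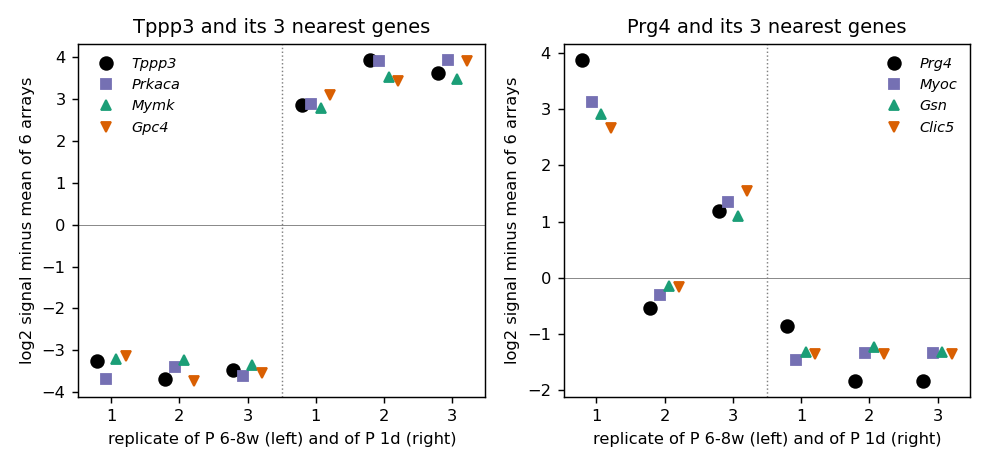
Log2 signal minus the mean of the gene over the 6 arrays (vertical axis), for Tppp3 with its 3 nearest genes (left panel) and Prg4 with its 3 nearest genes (right panel), P 6-8w arrays left of the dotted line and P 1d arrays right of it. The genes near Tppp3 separate the ages with little spread, and those near Prg4 are highest on P 6-8w replicate 1 and lowest of their group on replicate 2. Both patterns follow from the choice of the nearest genes.

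Nes encodes nestin, an intermediate filament protein of neural, muscle and vascular progenitor cells. Its signals were 6.44, 6.35 and 6.03 at P 6-8w, against 9.23, 8.68 and 9.41 at P 1d. The groups did not overlap, and the nearest P 6-8w and P 1d arrays differed by -2.24. On average Nes differed by -2.83 (standard error 0.22, adjusted p = 0.00059 from limma). It ranged from -3.05 to -1.04 over the alternative settings and was called in all 19. Nestin is also made in developing muscle, and genes of that tissue moved with it. Of 15 skeletal muscle genes, 10 were lower and 1 was higher at P 6-8w, with a median difference of -4.38 against 0.04 for all genes. Their summed signal was 18.03 to 20.03 on the log2 scale at P 6-8w and 21.61 to 21.74 at P 1d. The sums are limited by Acta1, which stood at the highest value of the array at P 1d and on P 6-8w replicate 1. Myh3 and Myh8, the embryonic and perinatal myosin heavy chains, stood at -10.55 and -8.94, and Myh4, the fast IIb myosin, at 8.31 (adjusted p = 0.000106, 0.000179 and 1.91e-05 from limma). Schwann cells can also contain nestin. None of 8 Schwann cell genes measured was called by limma or by the methods' t-test, although 6 had an unadjusted p under 0.05 by limma. They counted 7 higher on brighter genes and 6 on reference genes, where 17286 and 11939 of all 22093 genes were higher. Of the 8 genes, 7 had a mean signal under 5, and the summed signal of the 8 was 8.00 to 8.63 at P 6-8w and 8.74 to 8.79 at P 1d. Pmp22, the brightest, weighed most in the sum, with 8.03, 6.95 and 7.21 at P 6-8w, against 8.25, 8.31 and 8.28 at P 1d. Its difference was -0.88, whereas the median difference of the 8 genes was 0.21. The part of muscle and nerve in the Nes difference was not tested.

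The promoter of Nes is shown because it is the called marker with an entry in the RefSeq promoter table, in which 6 of the 9 markers were found. It spans 250 bases before to 50 bases after the annotated start (GRCr8, chr2:175736338-175736637, plus strand), and capitals mark matches to the GC box GGGCGG or TATAAA on either strand.
Nes: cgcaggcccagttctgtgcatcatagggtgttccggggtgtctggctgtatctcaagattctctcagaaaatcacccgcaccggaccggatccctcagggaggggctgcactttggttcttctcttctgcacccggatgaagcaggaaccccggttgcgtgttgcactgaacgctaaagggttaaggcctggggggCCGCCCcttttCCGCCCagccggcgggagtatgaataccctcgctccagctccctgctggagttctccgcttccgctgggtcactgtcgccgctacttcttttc
GC boxes on the reverse strand begin at positions -54 and -43 from the start. GGGCGG occurs in 33.1% of the 33469 promoters of the table and TATAAA in 14.2%. The window holds no CANNTG, the E-box core that bHLH factors such as Scx bind, which occurs in 72.1% of promoters, and no CCAAT, which occurs in 37.5%. Its GC content was 60%, with 18 CpG dinucleotides.

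Mcam, Eng and Cd34 are shared by progenitors and the vessel wall. Mcam encodes CD146, an adhesion molecule of endothelial cells and pericytes that binds laminin alpha 4. Its signals were 9.27, 8.88 and 9.04 at P 6-8w, against 11.21, 11.21 and 11.53 at P 1d. The ages did not overlap, and the spread within each was small, 0.39 at P 6-8w and 0.32 at P 1d. Mcam differed by -2.25 (standard error 0.14, adjusted p = 0.000338 from limma). It stayed negative in all alternatives but was not called after centring on the brighter genes, at -0.46, or after quantile normalization, at -0.24 (adjusted p = 0.135 and 0.415 from limma). The value 11.21 occurred on 2 P 1d arrays. Compared at the 2 decimals deposited, at least 2 equal P 1d values were found in 48.4% of all genes, against 11.1% for P 6-8w, which makes the spread of those genes look smaller than it may be.

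Eng encodes endoglin (CD105), a co-receptor for ligands of the TGF-beta family. Its signal was 10.25 on P 6-8w replicate 1 and at most 9.01 on the other two, against 9.74, 9.60 and 9.53 at P 1d. The P 1d arrays lay between P 6-8w replicate 1 and the other two, so the groups overlapped. The mean difference was -0.20 (95% interval -1.11 to 0.71, adjusted p = 0.644 from limma). Without P 6-8w replicate 1 it was -0.62 (adjusted p = 0.00498 from limma), within a fold of 2. Eng was positive under 3 scalings and called higher under 2 of them, at 1.59 after centring on brighter genes and 1.66 after quantile normalization (adjusted p = 2.09e-05 and 0.00718 from limma).

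Cd34 encodes a sialomucin of endothelial cells, blood progenitors and some fibroblasts, and cultured TSPCs are usually negative for it. Its signals were 10.50, 8.44 and 9.16 at P 6-8w, against 11.12, 10.78 and 10.16 at P 1d. P 6-8w replicate 1 lay within the P 1d values and the other two below them. The log2 difference was -1.32 (95% interval -2.76 to 0.12, adjusted p = 0.1 from limma). It was called only without P 6-8w replicate 1, at -1.89 (adjusted p = 0.0178 from limma), and turned positive, at 0.47 and 0.64, after centring on brighter genes and after quantile normalization. Ptprc, the gene of the leukocyte protein CD45, was dim at both ages, from 4.84 to 5.11 at P 6-8w and from 4.76 to 5.23 at P 1d. Other blood genes were not dim. The hemoglobin gene Hba-a1 stood at the highest value of every array. Alas2, an erythroid gene, ranged from 5.44 to 8.04 at P 6-8w and from 5.04 to 6.50 at P 1d. The part of blood cells in the Cd34 signal was not tested.

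The endothelial genes changed in both directions. Of 18 measured, 3 were lower, 1 was higher and 14 were not called, with a median difference of 0.16 against 0.04 for all genes, and their summed signal was 12.86 to 13.53 at P 6-8w and 13.99 to 14.15 at P 1d. The counts were 1 lower and 15 higher on brighter genes, 1 and 11 on reference genes, and 0 and 8 after quantile normalization. With the values as deposited, Kdr, the main VEGF receptor gene, Cdh5, the endothelial cadherin gene, and Aplnr, the apelin receptor gene, were lower at P 6-8w, at -2.84, -1.89 and -1.86 (adjusted p = 0.00699, 0.00245 and 0.0198 from limma). Emcn, the endothelial sialomucin endomucin, had 1.80 (adjusted p = 0.00107 from limma), and Pecam1, the gene of CD31, had 0.08 (adjusted p = 0.661 from limma). Set against the mean of the 18 genes on its own array, which removes any constant scaling, Mcam stood at 1.86, 2.02 and 2.16 at P 6-8w, against 4.05, 4.05 and 4.54 at P 1d. The same relative signal of Eng was 2.84, 2.14 and 2.13 at P 6-8w, against 2.58, 2.44 and 2.54 at P 1d. For Cd34 it was 3.09, 1.58 and 2.28 at P 6-8w, against 3.95, 3.62 and 3.17 at P 1d. Against this mean Mcam changed by -2.20, and Eng overlapped between the ages. The mean gives dim genes the same weight as bright ones, and the answer depended on the gene chosen. Against Cdh5 alone, Mcam changed by -0.36 and the ages met at -2.21, and against Kdr alone it changed by 0.59, with overlap. Cdh5 and Kdr are both among the 3 endothelial genes called lower. Genes that were not lower, such as Pecam1 at 0.08 and Emcn at 1.80, were not used as single references. These relative signals were chosen after the values were seen and are given without a test.

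**Figure D4:**
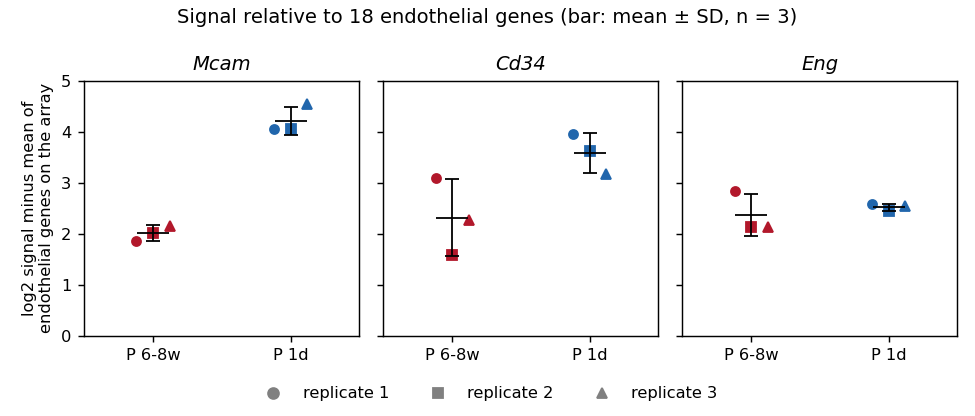
Log2 signal of Mcam, Cd34 and Eng minus the mean of 18 endothelial genes on the same array (vertical axis), for 3 P 6-8w (red, left) and 3 P 1d arrays (blue, right), with mean and SD as bars. Mcam changes by -2.20 against this mean, though only by -0.36 against Cdh5 alone, a gene itself called lower, and Eng does not separate the ages.

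Mural cells, the pericytes and smooth muscle cells that also carry CD146, showed changes in both directions. Of 12 of their genes 1 was lower and 3 were higher, with a median of -0.19, and their summed signal was 15.95 to 16.72 at P 6-8w and 16.00 to 16.89 at P 1d. The differences of Ndufa4l2, a mitochondrial protein gene of pericytes, Myh11, the smooth muscle myosin gene, and Rgs5, a pericyte regulator of G protein signalling, were 4.09, 4.02 and 3.38 (adjusted p = 0.000256, 0.000773 and 0.00219 from limma). The 1 lower gene was Abcc9, a potassium channel subunit gene of pericytes, at -1.48 (adjusted p = 0.000175 from limma). Other pericyte genes, Pdgfrb, Kcnj8, Cspg4 and Notch3, had differences of -0.97, -0.68, -0.53 and -0.52 without overlap between the ages, and they were within a fold of 2. The list thus held differences of both signs, and none was as low as the -2.25 of Mcam. Its counts were 0 lower and 10 higher on brighter genes, 0 and 6 on reference genes, and 0 and 5 after quantile normalization. The part of vessel cells in the Mcam difference was not tested.

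Thy1 encodes CD90, a small glycoprotein anchored in the outer membrane of mesenchymal cells, neurons and rat T cell precursors. Its signals were 9.16, 8.02 and 8.64 at P 6-8w, against 7.83, 7.54 and 7.40 at P 1d. The groups did not overlap, but the lowest P 6-8w array was only 0.19 above the highest P 1d array. The difference of Thy1 was 1.02 (standard error 0.31, adjusted p = 0.0368 from limma), just past a fold of 2. It was positive in all 19 alternatives, from 0.74 to 2.81, and called in 11 of them. Among the fits that left out 1 array, Thy1 kept its call only without P 6-8w replicate 2, at 1.31 (adjusted p = 0.0114 from limma). In the others it was not called, with adjusted p from 0.0628 to 0.111 by limma and differences from 0.74, without P 6-8w replicate 1, to 1.14. Nor was it called when arrays were centred by the median named gene, at 0.89 (adjusted p = 0.0583 from limma). Cd3e, a T cell gene, was dim, from 3.63 to 3.84 at P 6-8w and at 3.59 on each P 1d array.

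Nt5e encodes CD73, the surface enzyme that releases adenosine from AMP. Its signals were 8.04, 6.29 and 6.96 at P 6-8w, against 6.27, 6.08 and 6.02 at P 1d. The groups did not overlap by a margin of 0.02, and the P 6-8w arrays spread over 1.75. The difference of Nt5e was 0.97 (95% interval -0.14 to 2.09, adjusted p = 0.113 from limma). It was called without P 6-8w replicate 2, at 1.38 (adjusted p = 0.0349 from limma), and under the reference, brighter-gene and quantile scalings, at 1.98, 2.76 and 1.87. Alongside it, Entpd1, the gene of CD39, which makes AMP from ATP and ADP, rose by 1.82 (adjusted p = 0.00361 from limma). Its signals were 10.49, 9.69 and 9.58 at P 6-8w, against 8.00, 8.29 and 8.00 at P 1d.

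Alcam encodes CD166, an adhesion molecule that binds itself and CD6. It was the dimmest of the markers, with 5.53, 5.84 and 5.65 at P 6-8w, against 6.64, 6.04 and 6.71 at P 1d. All P 6-8w values were below the P 1d values, by at least 0.20. Alcam differed by -0.79 (95% interval -1.30 to -0.28, adjusted p = 0.0226 from limma), which did not reach a fold of 2. Without P 1d replicate 2 it passed both limits and was called lower (adjusted p = 0.00773 from limma). It turned positive at 0.22 and 1.00 after centring on the reference genes and on brighter genes.

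Prg4 encodes lubricin, the secreted proteoglycan that lubricates joint and tendon surfaces. Its signals were 14.50, 10.09 and 11.81 at P 6-8w, against 9.76, 8.79 and 8.79 at P 1d. Every P 6-8w value exceeded every P 1d value, by 0.33 to 5.71, yet the P 6-8w arrays ranged over 4.41, the widest spread of any marker. The log2 difference was 3.02 (95% interval 0.17 to 5.87, adjusted p = 0.0702 from limma), so Prg4 was not called. It was called without P 6-8w replicate 2, at 4.04 (adjusted p = 0.0257 from limma), and its difference was 1.84 without P 6-8w replicate 1 (adjusted p = 0.0758 from limma). Under the reference, brighter-gene and quantile scalings it was called higher at 4.03, 4.81 and 5.07.

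The genes with values nearest to those of Prg4 were Myoc, Gsn and Clic5, at distances of 0.50, 0.56 and 0.64. Myoc encodes the secreted protein myocilin, Gsn the actin-severing protein gelsolin, and Clic5 a chloride channel family protein of the synovial lining. Clic5 had 9.06, 6.23 and 7.94 at P 6-8w, against 5.03 on each P 1d array, and was called higher at 2.71 (adjusted p = 0.0234 from limma). Like Prg4, all 3 were highest on P 6-8w replicate 1 and lowest of their group on replicate 2. They were picked for values near those of Prg4, so the shared order follows from the choice. Beside them, Htra4, a serine protease gene from the same lining list, had 8.12 on P 6-8w replicate 1 and 4.57 and 4.58 on the other two, against 4.11 to 4.13 at P 1d, and was not called (adjusted p = 0.211 from limma).

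Of 14 sheath, paratenon and synovial lining genes, Tppp3 and Prg4 included, 6 were lower, 1 was higher and 7 were not called, with a median of -0.53. These counts were 2 lower and 7 higher on brighter genes, 3 and 7 on reference genes, and 2 and 2 after quantile normalization. Among the lower ones were Pdpn, the gene of the membrane protein podoplanin, at -4.03, Cdh11, a cadherin of synovial fibroblasts, at -2.22, and the hyaluronan synthase gene Has2 at -1.76 (adjusted p = 0.00221, 0.00205 and 0.00762 from limma). Within single arrays, the signal of Prg4 minus that of Tppp3 was 8.26, 4.27 and 5.79 at P 6-8w, against -2.58, -4.61 and -4.32 at P 1d. The relation between the levels of 2 genes on an array cannot be read, but the change in this quantity, 9.94, does not depend on a constant scaling of the arrays. Cartilage genes, which surface chondrocytes express together with Prg4, were measured too. Of 12, 2 were higher and 1 was lower, with a median of 0.24, and their summed signal was 13.20 to 16.64 at P 6-8w and 9.42 to 10.61 at P 1d. On brighter genes 11 were higher, on reference genes 9 and after quantile normalization 2, with none lower by limma. Chad, which encodes chondroadherin, rose by 11.01 and Comp, cartilage oligomeric matrix protein, by 5.37 (adjusted p = 0.000663 and 0.0022 from limma), while Col11a1, a collagen chain gene of cartilage and developing tendon, was lower at -1.45 (adjusted p = 0.0432 from limma). With 16.57, 13.00 and 14.16 on the P 6-8w arrays, Chad alone made up most of the summed signal at that age. Col2a1, Acan and Sox9, which define cartilage, had values of -0.16, -0.01 and 0.23, none of them called (limma, adjusted p from 0.191 to 0.99). The part of cartilage-type cells in the Prg4 difference was not tested.

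The promoter of Prg4 is shown beside that of Nes as the marker with the highest difference (GRCr8, chr13:65054176-65054475, minus strand, read 5′ to 3′ along the gene). Capitals mark the same 2 motifs.
Prg4: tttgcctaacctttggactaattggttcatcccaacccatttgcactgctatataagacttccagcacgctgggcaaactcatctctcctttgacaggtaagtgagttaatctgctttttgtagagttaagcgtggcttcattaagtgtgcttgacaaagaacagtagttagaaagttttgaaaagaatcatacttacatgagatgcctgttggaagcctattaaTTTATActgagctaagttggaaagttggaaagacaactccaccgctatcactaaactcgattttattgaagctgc
It holds TATAAA on the reverse strand at position -25 from the start and no GGGCGG. An E-box CANNTG begins at -213, and a CCAAT on the reverse strand at -230. The GC content was 39.3%, lower than that of most promoters (10.6% of them lay below it), against a median of 51.7% over the table and 60% for Nes.

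**Figure D5:**
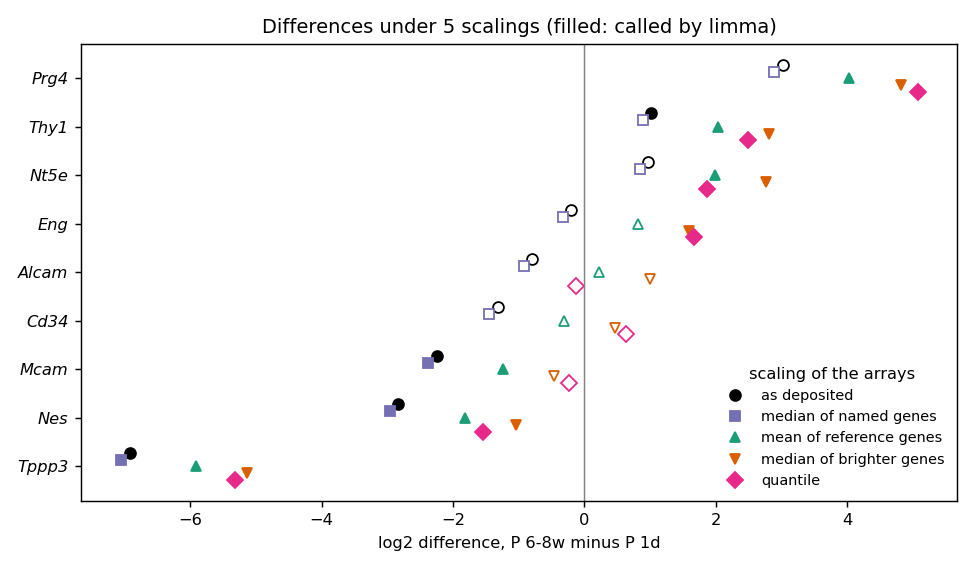
Log2 difference, P 6-8w minus P 1d (horizontal axis), of each marker under 5 scalings of the arrays, given by colour and symbol, with filled symbols where limma called the gene. Tppp3 and Nes stay left of 0 and called throughout, and Eng, Alcam and Cd34 lie on both sides of 0.

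The P 6-8w arrays themselves differed in a way that touched most markers. Replicate 1 held the highest P 6-8w value for 8 of the 9 markers, where this was so for 37.2% of all genes, and replicate 2 the lowest for 7 of the 9, against 36.5% of all genes. Alcam was the marker not highest on replicate 1, and Alcam and Nes those not lowest on replicate 2. For 6 of the 9 the range was wider at P 6-8w than at P 1d, as for 79.3% of all genes. The tendon gene Tnmd followed the same order, with 13.47, 9.36 and 12.37 on P 6-8w replicates 1, 2 and 3. The order was not particular to the markers. On those arrays the mean log2 signal was 10.47, 9.76 and 10.06 for the reference genes and 13.19, 11.82 and 12.59 for the tenocyte genes. The means of the cell division, skeletal muscle, mural and Schwann cell lists did not follow it. The share among genes of the markers' brightness was not taken. With P 1d replicate 2, whose epidermal genes were dim, as the only neonatal array, the differences of Nes, Mcam and Tppp3 were -2.41, -2.15 and -7.37 and that of Thy1 was 1.07 (adjusted p = 0.0395, 0.0407, 0.0223 and 0.256 from limma). Those p-values take all spread from the 3 P 6-8w arrays and assume that the lone P 1d array varies like them. The part of epidermal RNA in the differences was not tested.

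Further genes used to recognise stem and progenitor cells were measured as well. Of 24 measured, 4 were lower, 1 was higher and 19 were not called, with a median of -0.18, and 7 had a mean signal under 5. The counts were 0 lower and 17 higher on brighter genes, 3 and 9 on reference genes, and 1 and 4 after quantile normalization. With the values as deposited, Pdgfra, the PDGF receptor gene of mesenchymal progenitors, Itgb1, the integrin subunit CD29, and Cd44, the hyaluronan receptor used with CD90 and CD105 to identify TSPCs, were lower, at -2.61, -2.10 and -2.05 (adjusted p = 0.0319, 0.0157 and 0.00475 from limma). Cd44 had 5.71, 5.69 and 5.71 at P 6-8w, against 7.44, 7.32 and 8.49 at P 1d, without overlap. Prom1, the gene of CD133, was the other lower one at -1.90, and Cd200, a surface glycoprotein gene of progenitors, the higher one at 1.60 (adjusted p = 0.000482 and 0.00164 from limma). Sox2, Pou5f1 (Oct4) and Nanog had 0.23, 0.42 and 0.60 without overlap, within a fold of 2 and not called (adjusted p = 0.0591, 0.0212 and 0.00129 from limma). They were dim, with means of 5.07, 3.97 and 3.82 at P 6-8w and 4.84, 3.55 and 3.23 at P 1d.

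Of 28 ligands, receptors and enzymes that work with the markers, 4 were lower, 1 was higher and 23 were not called, with a median of -0.21. The counts were 1 lower and 22 higher on brighter genes, 1 and 10 on reference genes, and 1 and 3 after quantile normalization. Lama4, the laminin alpha 4 chain to which CD146 binds, had 9.53, 8.33 and 8.74 at P 6-8w, against 12.67, 12.82 and 12.41 at P 1d. Its difference of -3.77 (adjusted p = 0.00074 from limma) ran the same way as that of Mcam. Around endoglin, the ligand gene Tgfb2 and the receptor gene Tgfbr1 were lower, at -1.91 and -1.43 (adjusted p = 0.00238 and 0.0082 from limma). Tgfb3 and Acvrl1, the endothelial type I receptor gene, had 0.14 and -0.36 and were not called (adjusted p = 0.595 and 0.0838 from limma). Around CD73, Entpd1 was the higher gene and Entpd2, another ATP-splitting surface enzyme, was lower at -1.23 (adjusted p = 0.0239 from limma). The adenosine receptor genes Adora1, Adora2a and Adora2b had values of 0.05, -0.12 and -0.30, and none was called (limma, adjusted p from 0.0983 to 0.422). Adora1 and Adora2b were dim, with means of 3.61 and 4.34 at P 6-8w and 3.56 and 4.64 at P 1d, so a change could be missed. In this list, 10 of the 28 genes had a mean signal under 5.

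The remaining lists describe the tissue around the markers. Of 10 cell division genes 9 were lower, with a median of -2.53, and from 5 to 9 were lower under the other scalings. Mki67, the gene of the proliferation antigen Ki-67, the cyclin gene Ccna2 and the topoisomerase gene Top2a stood at -4.82, -4.31 and -4.10 (limma, adjusted p = 5.23e-05, 8.17e-05 and 0.00021). At P 1d, Mki67 had 11.98 and Top2a 9.91 on each array, and Ccna2 had 10.42, 10.47 and 10.47. Such equal values make the spread look smaller than it may be, and the p-values share that limit. Of 14 tenocyte genes 4 were lower and none was higher by limma, with a median of -0.18, but 9 were higher on brighter genes, 5 on reference genes and 3 after quantile normalization. Those named by size were Col3a1, the type III collagen gene, at -2.54, Tnc, the tenascin-C gene, at -2.51 and Lox, the lysyl oxidase gene, at -1.37 (adjusted p = 0.0137, 0.0182 and 0.0384 from limma). Of 11 blood and immune genes 1 was lower, the macrophage gene Cd68 at -1.25 (adjusted p = 0.0463 from limma), and 9 were higher on brighter genes and 6 on reference genes. Among them, Hba-a1 stood at the highest value of every array, so its difference cannot be read. With all 6 arrays, none of 9 epidermal genes was called by limma or by the methods' t-test, and 0 had an unadjusted p under 0.05 by limma, with a median of -3.34. Without P 1d replicate 2, the neonatal array on which they were dim, 7 of the 9 epidermal genes were called lower by limma. On brighter genes 3 of them were lower and 2 higher, and on reference genes 3 were lower.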

How the data were processed

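The authors made biotinylated cDNA from the total RNA of each tendon, hybridised it to Affymetrix Rat Transcriptome Arrays and ran RMA at its default settings with global scaling as the normalization, and they deposited log2 signals. All 413052 values stood equal in a further deposited table. The sources used here do not give the annotation build. Of 68842 rows, 23446 named exactly 1 gene in the platform annotation, 505 named several and 44891 none, and symbols were updated by Entrez ID, which changed 1. Each of 22093 genes was represented by its brightest row on average. There were no detection calls, so the number of arrays and the signal over background limit the precision.

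The ages were compared with limma 3.58.1 (lmFit, eBayes) in R 4.3.3 without covariates, in a fit over all genes, after the step was tested on simulated data. The methods used a t-test at a fold change over 2, and that test was run as an alternative. The 9 markers and 13 further gene lists were chosen with earlier results of these data known. All 9 markers, the 3 nearest genes of the markers with the lowest and the highest difference, and up to 3 called genes per list with the largest differences were named by rule. Named after their values were seen were Abcc9, Pdgfrb, Kcnj8, Cspg4, Notch3, Pgk1, Col1a1, Dcn, Tnmd, Scx, Mkx, Acta1, Krt1, Ptprc, Hba-a1, Alas2, Pmp22, Emcn, Pecam1, Cd3e, Htra4, Cdh11, Has2, Col2a1, Acan, Sox9, Prom1, Cd200, Sox2, Pou5f1, Nanog, Tgfbr1, Tgfb3, Acvrl1, Entpd2, Adora1, Adora2a, Adora2b, Usp2, Rnf26, Mfrp and C1qtnf5. Promoters are those of RefSeq for GRCr8. Alternatives were limma-trend, the methods' t-test (raw and adjusted p), a block for replicate number, no limit on the fold, each array left out in turn, a single P 1d array (replicate 2), 4 scalings, leaving out genes with a mean signal under 5, the mean of a gene's rows and testing every row.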

Additional observations from a re-analysis of the deposited data

How the results depend on the processing

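The count of 3 lower markers was kept or moved by no more than 1.5 times in all 19 alternatives. The count of 1 higher marker was 0 with the methods' t-test after adjustment, against P 1d replicate 2 alone and with arrays centred by the median named gene, 2 with the replicate number as a block, 3 after centring on the reference genes, and 4 after centring on brighter genes or quantile normalization. It ranged from 0 to 3 in the fits that left out 1 array. The numbers only name the rats, since deviations of arrays with the same number correlated at 0.01, -0.113 and 0.046, and with the block Prg4 was called at 3.02 (adjusted p = 0.0451 from limma). Eng was -0.62 without P 6-8w replicate 1 and turned to 0.01 without P 6-8w replicate 2, to 0.81 after centring on reference genes, to 1.59 on brighter genes and to 1.66 after quantile normalization. Cd34 turned to 0.47 on brighter genes and 0.64 after quantile normalization, and Alcam to 1.00 and 0.22 on brighter and reference genes.

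Over all genes, 3717 lower and 544 higher calls became 6759 and 5246 with no fold limit, 1093 and 67 against P 1d replicate 2 alone, 593 and 17286 on brighter genes, 1351 and 11939 on reference genes and 991 and 894 after quantile normalization. The higher calls were 342 on the median of the named genes and 195 without dim genes. The cause of these shifts was not tested. No background level is given, so how far dim genes such as Alcam stood above it was not assessed.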

Other observations

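Thy1 and Mcam are near neighbours in the GRCr8 annotation, with the starts of 4 protein-coding genes between them. The signal of Thy1 minus that of Mcam within an array was -0.11, -0.86 and -0.40 at P 6-8w, against -3.38, -3.67 and -4.13 at P 1d, a change of 3.27 that no constant scaling of the arrays alters. Of the genes between them, Usp2, a ubiquitin protease gene, and Rnf26, a ubiquitin ligase gene, were lower at P 6-8w, at -1.47 and -1.16 on the log2 scale (limma, adjusted p = 0.00394 and 0.00086). Mfrp and C1qtnf5 had 0.17 and 0.44 and were not called (adjusted p = 0.126 and 0.0229 from limma). The differences of neighbouring genes in this stretch thus had both signs. This was noticed after the values were seen and was not tested.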
